A study of Mus musculus with 28 samples.

Results

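Complex I, the NADH:ubiquinone oxidoreductase of the inner mitochondrial membrane, is built from subunits encoded in the nucleus and in mitochondrial DNA. The genes described here were chosen by name, as those called Nduf followed by a, b, c, s or v and a number, leaving out names that end in -ps. Nearly all are nuclear-encoded complex I subunits, but the rule also takes Ndufa4, now held to be a subunit of cytochrome c oxidase, and its paralog Ndufa4l2, and the counts and shares include them. The rule found 39 genes among 25239 in the SynSURF count table and 37 among 24443 in the sucrose table. Ndufa11b and Ndufb4c, which were in the SynSURF table alone, are annotated as processed pseudogenes in GENCODE M21, and the other 37 are annotated as protein-coding. Mitochondrially encoded subunits and Ndufb1 are not analysed here.

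Complex I takes electrons from NADH at the tip of a peripheral arm, passes them along iron-sulfur clusters to ubiquinone, and couples this to proton pumping in a membrane arm. The core subunits of the peripheral arm form an N module, where NADH is oxidised, and a Q module, where ubiquinone is reduced, while the accessory subunits surround the core and are needed for its assembly and stability. Nerve terminals hold mitochondria, and mRNAs of nuclear-encoded mitochondrial proteins are known to occur in axons and terminals, where they can be translated locally.

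The study profiled poly(A) RNA of mouse brain synaptosomes, the resealed nerve endings that form when brain tissue is homogenised, before sorting (crude) and after sorting. There were 10 crude and 10 sorted SynSURF libraries, and 3 of each from a sucrose gradient. Per the labels' protocols, a sorted sample held more particles than a crude pellet, and RNA was amplified to cDNA with a single-cell whole transcriptome kit before library construction. The labels give no strain, age, sex, genotype or number of animals, and the 2 total RNA libraries of the series are not used here. Whether replicates are separate animals is not stated, and the p-values reflect the scatter of these libraries alone, part of which may be technical.

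Depth differed between the groups. SynSURF crude libraries held 1035423 to 8897238 counts and sorted libraries 76520 to 1812759. A count of 0 in a sorted library, read as at most 3 counts, allows a level of up to 5.55 to 57.4 CPM, depending on the library, against 0.233 to 2.13 CPM in a crude library. CPM are a gene's count scaled to a common library size. Here that size is a library's summed counts over the genes that passed an expression filter, with TMM factors. Intervals and floors cover counting error only. Rn45s, the 45S ribosomal RNA precursor, took 0.0894% to 0.778% of crude and 0.805% to 62.5% of sorted SynSURF counts. Of the markers fixed for each cell type, those of oligodendrocytes and myelin summed to 2922 to 6544 CPM in crude and 19321 to 98867 CPM in sorted libraries, with 3 of 5 tested members higher. The 8 neuron and nerve terminal markers summed to 3659 to 5356 CPM in crude and 2239 to 11596 CPM in sorted libraries, with 2 of 6 tested members higher, 1 lower, and Syp at 0 in every sorted library. Astrocyte markers summed to 1265 to 2430 CPM in crude and 0 to 1403 CPM in sorted libraries (4 of 5 tested members lower). The 6 microglial markers summed to 54.5 to 177 and 0 to 320.2 CPM (3 of 3 tested members lower, Cx3cr1 at 0). The 4 endothelial markers, none of them tested, summed to 1.25 to 16.0 CPM in crude libraries and were at 0 in sorted ones. A count of 0 allows each marker up to 5.55 to 57.4 CPM in a sorted library, so these zeros alone show no fall. Over all genes tested in SynSURF, 7.62% were called higher and 22.1% lower. The part of these cell types in the results below was not tested. In such bulk samples, fewer particles of a kind and less RNA per particle cannot be told apart.

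Complex I mRNAs held shares of the counts that overlapped between the groups, and differed in how that share was spread over the members. Their summed share was 0.294% ± 0.0765 of counts in SynSURF crude libraries (SD, n = 10), from 0.148% in replicate 1 to 0.400% in replicate 6. In SynSURF sorted libraries it was 0.287% ± 0.187 (SD, n = 10), from 0.0760% in replicate 9 to 0.662% in replicate 7. The sorted range contained the whole crude range. The totals include Rn45s, which took 62.5% of the counts in sorted replicate 9, 38.9% in sorted replicate 7 and at most 0.778% in crude libraries. Sorted shares are thus lower than they would be without Rn45s, by an amount that differs between libraries. Shares without Rn45s are not given. The sucrose libraries held 0.382% ± 0.207 in crude and 0.292% ± 0.0340 in sorted samples (SD, n = 3 each), and the highest crude value, 0.619% in replicate 1, stood above the others. Without Ndufa4 the mean shares were 0.266% and 0.277% in SynSURF crude and sorted libraries and 0.336% and 0.266% in sucrose crude and sorted ones.

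Levels can be compared between genes only per length, so the order of the members is given in the authors' TPM, which scale a count by transcript length and library. In SynSURF crude libraries Ndufa4 was highest, at 2986 ± 939 TPM, followed by Ndufb11 at 2509 ± 1180 TPM (SD, n = 10 each). Ndufa8 at 1075 ± 314 TPM and Ndufa2 at 1019 ± 453 TPM came next, and neither of these neighbouring pairs differed beyond its spread. Ndufa7 followed at 627 ± 842 TPM, with an SD larger than its mean. At the low end stood the core subunit Ndufs7 at 14.3 ± 10.4 TPM, the pseudogene Ndufa11b and the Ndufa4 paralog Ndufa4l2 at 0.768 TPM. In SynSURF sorted libraries the order began with Ndufb11 at 3567 ± 3405 TPM, Ndufa8 at 1776 ± 3376 TPM and Ndufa4 at 857 ± 416 TPM (SD, n = 10). In sucrose crude libraries Ndufa4 was again first, at 3665 ± 1289 TPM (SD, n = 3).

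Mean levels of the 37 members in both tables followed each other closely between most groups. Over these members, log2(TPM + 1) of SynSURF crude and sucrose crude libraries had a Pearson r of 0.93 and a Spearman rho of 0.915, and sucrose crude and sucrose sorted libraries had 0.95 for both. SynSURF crude and SynSURF sorted libraries had 0.729 and 0.67. These are descriptions across genes, which share libraries and are not independent replicates, and the sorted SynSURF means rest on far fewer counts.

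**Figure D1:**
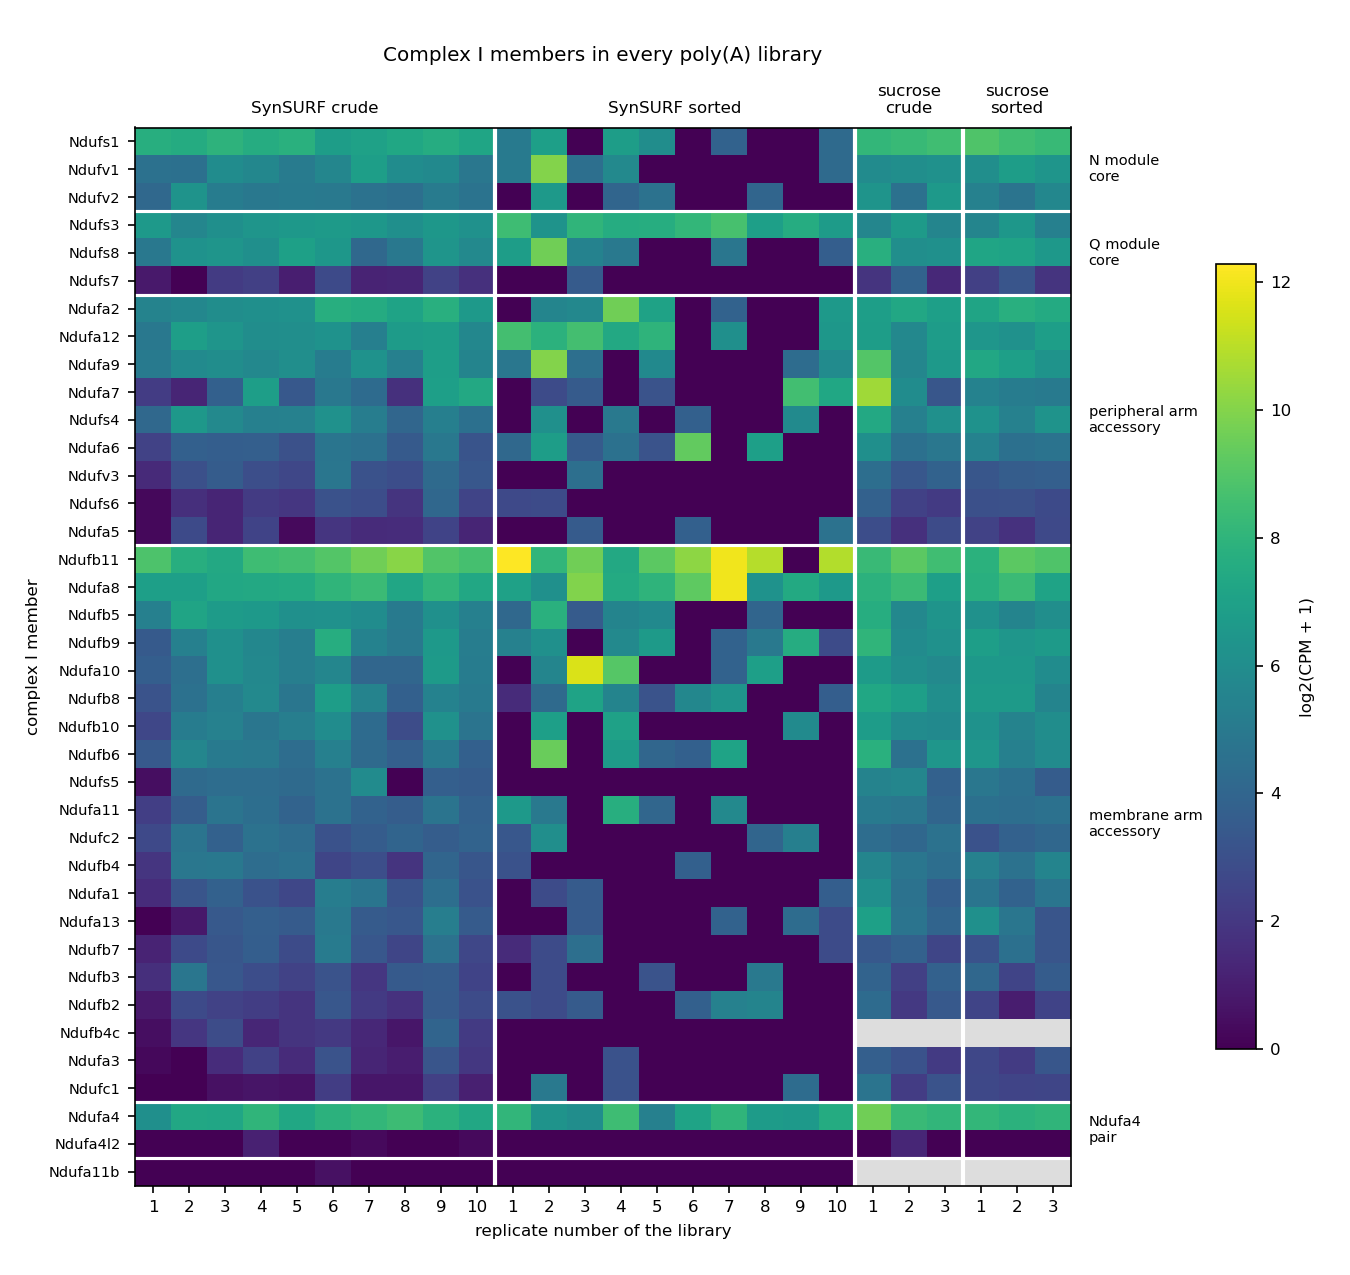
Level of 38 members (rows, ordered by role and by mean level in SynSURF crude) in each of the 26 poly(A) libraries (columns), as log2(CPM + 1), with grey where a gene is not in the table. SynSURF sorted libraries show many members at 0 beside a few very high ones, while the other 3 groups show similar columns.

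Fewer members had any count in a sorted SynSURF library than in a crude one. Crude libraries held counts of 34 to 38 members (median 37) and sorted libraries of 11 to 29 (median 18), so the groups did not overlap. The most members, 29, were in sorted replicate 2, and the fewest, 11, in sorted replicates 6 and 9. With every library thinned to 76520 counts, 16 to 33 members (median 29) had a count in crude libraries and 9 to 24 (median 12.5) in sorted ones, and the groups then overlapped: crude replicate 1, at 16, lay below sorted replicates 2, 3 and 4. Among all genes, the thinned libraries detected 7320 to 8637 in crude and 2588 to 4144 in sorted samples. Sucrose libraries detected 36 or 37 members in crude and 36 in sorted samples.

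The members seen in every sorted SynSURF library were Ndufa4, Ndufa8, a twin-cysteine protein on the intermembrane space side of the membrane arm, and Ndufs3, a Q module core subunit. Ndufb11 was seen in 9, and Ndufb8 and Ndufb9 in 8. A further 14 members were seen in 5 to 7 sorted libraries, 15 in 1 to 4, and 4 in none. In crude libraries 32 members were seen in 10 of 10.

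**Figure D2:**
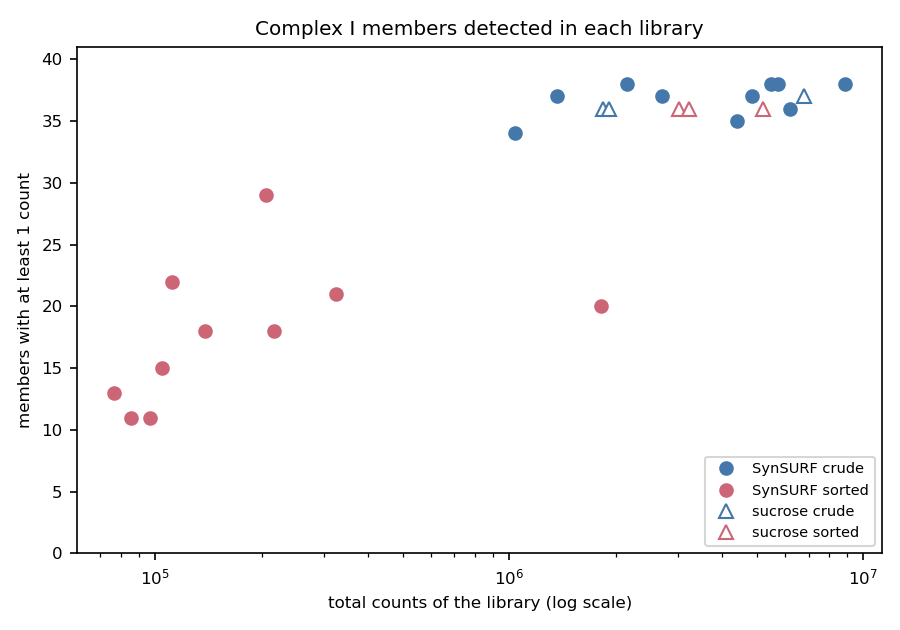
Members with at least 1 count (y axis) against the total counts of each library (x axis, log scale), with circles for SynSURF and triangles for sucrose libraries. The 9 shallower sorted SynSURF libraries hold 11 to 29 members, and sorted replicate 1, with 1812759 counts, holds 20, fewer than any crude library.

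Within a sorted SynSURF library a few members carried most of the complex I counts, and these differed between libraries. The 3 leading members held 31.3% to 65.3% of the complex I counts of a crude library and 51.2% to 92.2% of those of a sorted library, with a sorted median of 80.1%. Ndufb11, a small X-linked subunit of the membrane arm, led in 9 of 10 crude libraries, and Ndufs1 led in the other. In sorted libraries Ndufb11 led in 5 of 10, with 76.1% of complex I counts in replicate 1 and 72.7% in replicate 8. The others were led by Ndufa9 in replicate 2, Ndufa10 in replicate 3, Ndufa2 in replicate 4, Ndufa8 in replicate 7 and Ndufa7 in replicate 9. Of the 35 members with a sorted count, 22 took over 50% of their sorted CPM from 1 library, for 9 of them sorted replicate 2. In the deeper crude libraries 2 members did so. Several of the 22 had very few sorted counts, such as Ndufa3 and Ndufs7 with 1 each, where 1 library must lead. The share over all genes was not computed, so this is not read as a trait of complex I mRNAs.

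The question put to the SynSURF libraries was which complex I mRNAs differed between sorted and crude synaptosomes. Over all 6598 genes that passed the expression filter, edgeR's quasi-likelihood test called 503 higher (7.62%) and 1458 lower (22.1%) in sorted libraries at a Benjamini-Hochberg adjusted p under 0.05. Of the 39 members, 25 passed the filter, of which 3 rose (Ndufs3, Ndufa6 and Ndufa10) and 3 fell, Ndufs1 and Ndufa1 among them, 6 of 25 against 29.7% of all genes called in either direction. At an unadjusted p under 0.05 there were 9 of 25 members, against 39.9% of all genes tested. The median log2 fold change was 0.00 over the tested members and -0.18 over all genes tested. Members could pass the filter through either group, and the other 14 did not pass it. Untested Ndufs5 averaged 18.3 CPM in crude libraries, with no sorted count, and Ndufa1, which was tested, 13.5 CPM. The tested members may thus lean towards those that kept counts after sorting. Without the filter the median was -0.64 over 39 members, with 14 fitted above and 25 below 0, against -1.39 over all genes. No tested member had every sorted library above or below every crude one, against 0.152% and 8.73% of all genes tested. With library totals, summed over the genes past the filter, in place of TMM factors, the all-gene median moved to -1.28. The member median moved to -1.18, and 0 members were called higher and 6 lower.

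**Figure D3:**
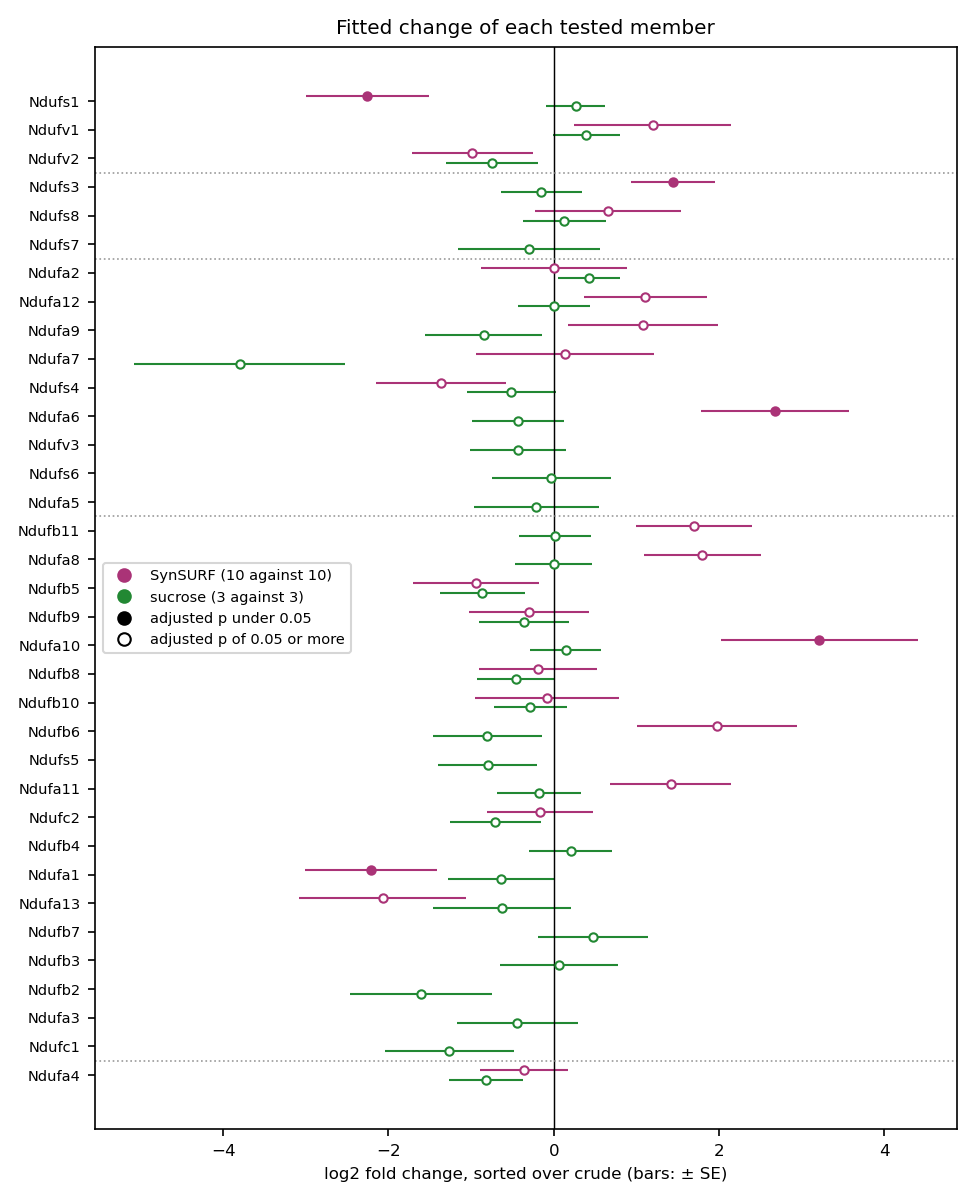
Fitted log2 fold change of sorted over crude with its SE for the tested members described here, by role from core subunits at the top to Ndufa4 at the bottom, with filled points for an adjusted p under 0.05. The 5 filled points are all from SynSURF, 3 above 0 and 2 below, and no sucrose point is filled.

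Among the core subunits, Ndufs1 fell and Ndufs3 rose in sorted SynSURF libraries. Ndufs1 (chr1:63143596-63176833, GRCm38, minus strand), the large iron-sulfur subunit of the N module, had a lowest level of 112 CPM, a median of 189.9 and a highest of 247 in crude libraries. In sorted libraries the lowest was 0, the median 15.7 and the highest 119 CPM. In 4 sorted libraries (replicates 3, 6, 8 and 9) Ndufs1 had no count, and 8 of 10 lay below the lowest crude library. Replicates 2 and 4, at 119 and 114 CPM, overlapped the crude range. The log2 fold change was -2.25 ± 0.74 (SE, edgeR, adjusted p = 0.0230).

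Ndufs3 (chr2:90894634-90904827, minus strand), a core subunit that enters the Q module early in its assembly, had a lowest level of 48.3 CPM, a median of 86.3 and a highest of 101 in crude libraries. In sorted libraries the lowest was 77.5, the median 195 and the highest 423 CPM. Of the sorted libraries, 9 of 10 lay above the highest crude library, and replicate 2, at 77.5 CPM, lay inside the crude range. edgeR fitted a log2 fold change of 1.44 ± 0.51 (SE, edgeR, adjusted p = 0.0324), and no library gave more than 19.2% of its summed sorted CPM. Leaving out 1 library kept the fold change between 1.26 and 1.503, and the adjusted p rose to between 0.0509 and 0.0621 without crude replicate 2, 3, 4, 5, 7, 8 or 10 or sorted replicate 7. With library totals the fold change was 0.37 (adjusted p = 0.582) beside an all-gene median of -1.28, and without the filter or with a replicate block the adjusted p was 0.111 and 0.183.

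The level of these core mRNAs relative to each other can be read without any scaling, as the share of Ndufs3 in the summed counts of Ndufs1 and Ndufs3. A share shows their ratio and not the course of either mRNA. This share was chosen after the values were seen, from a member called higher and a member called lower. Its direction in SynSURF follows from that choice, and it is given with no test. In SynSURF crude libraries it ran from 20.4% in replicate 2 to 47.4% in replicate 6, with a median of 30.9%. In sorted libraries it ran from 39.4% (95% Wilson interval 24.7% to 56.3%, 33 counts) in replicate 2 to 100% in replicates 3, 6, 8 and 9 (67.6% to 100% on the 8 counts of replicate 8), with a median of 94.3%. Replicate 2 lay inside the crude range, and the other 9 sorted libraries lay above every crude library. In the sucrose preparation the share was 14.6%, 24.3% and 11.5% in crude replicates 1, 2 and 3 and 8.99%, 19.7% and 11.4% in the sorted ones, with overlapping groups. It was lower after sorting in 3 of 3 same-numbered pairs, and in the third the Wilson intervals overlapped over nearly their whole length.

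**Figure D4:**
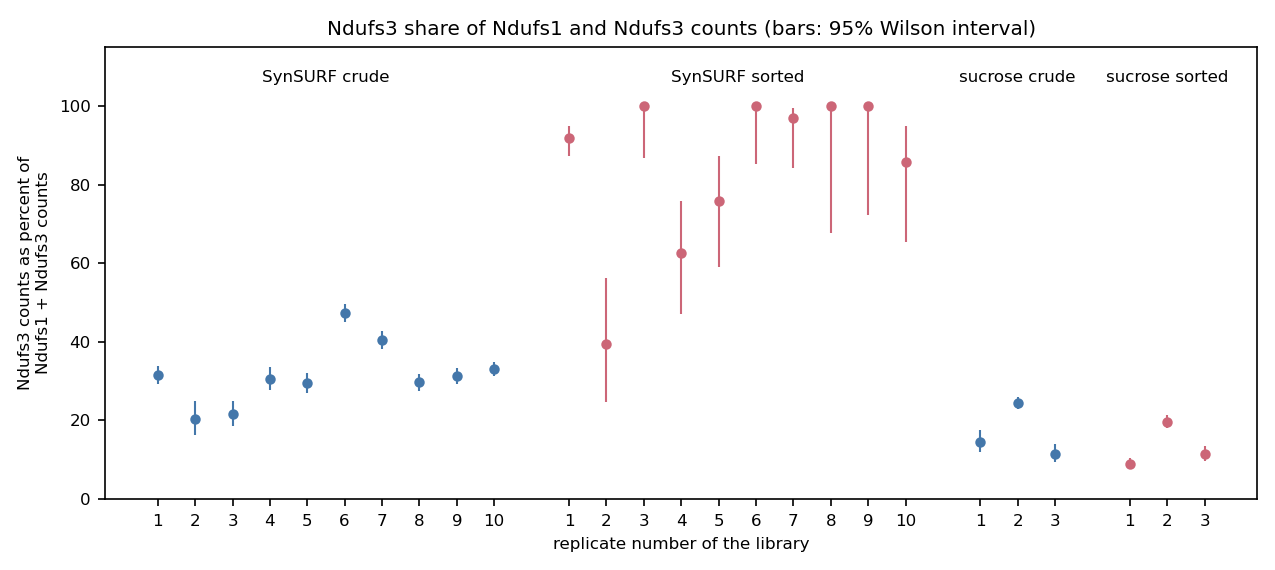
Share of Ndufs3 in the summed counts of Ndufs1 and Ndufs3 in each library (y axis, percent; bars are 95% Wilson intervals, counting error only). Sorted SynSURF libraries other than replicate 2 lie between 62.5% and 100%, above all crude SynSURF libraries and all sucrose libraries.

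Ndufv1, Ndufv2 and Ndufs8 did not pass the test in SynSURF. Ndufv1, which binds the flavin and NADH, had a median of 49.8 CPM in crude and 8.83 in sorted libraries, and sorted replicate 2, at 1008 CPM, gave 89.1% of its sorted level (log2 fold change 1.20 ± 0.95, SE, edgeR, adjusted p = 0.357). Ndufs8, a Q module iron-sulfur subunit, showed the same pattern, with medians of 71.9 and 19.5 CPM and 781 CPM in sorted replicate 2 (0.66 ± 0.88, adjusted p = 0.599). Ndufv2, the other NADH-side iron-sulfur subunit, had medians of 29.8 and 0 CPM (-0.98 ± 0.73, adjusted p = 0.322). Ndufs7, which carries the last cluster before ubiquinone, was too low to test, with 154 counts in crude and 1 in sorted libraries.

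Of the 9 accessory subunits of the peripheral arm, 6 were tested, 1 rose and none fell. Ndufa6 (chr15:82350140-82354322, minus strand), which anchors an acyl carrier protein to the peripheral arm, had a lowest level of 4.28 CPM, a median of 11.8 and a highest of 29.6 in crude libraries. In sorted libraries the lowest was 0, the median 13.6 and the highest 645 CPM. Replicate 6 alone gave 68.7% of the summed sorted CPM, 3 of 10 sorted libraries had no count and 5 lay above the crude median. The fitted log2 fold change was 2.67 ± 0.90 (SE, edgeR, adjusted p = 0.0256), and it was 1.12 (adjusted p = 0.209) without sorted replicate 6. It was 0.94 (adjusted p = 0.474) with a replicate block and 1.37 (adjusted p = 0.124) with limma voom.

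The other tested members of this arm were Ndufa2, Ndufa7, Ndufa9, Ndufa12 and Ndufs4, with fitted log2 fold changes from -1.37 (Ndufs4) to 1.11 (Ndufa12). Ndufa9, a nucleotide-binding subunit beside the Q module, took 84.9% of its sorted CPM from replicate 2. Ndufa2, with a thioredoxin-like fold, took 69.2% from replicate 4. Ndufa7 varied widely before sorting, from 2 counts in crude replicate 2 to 2177 in crude replicate 10. Ndufs6, Ndufa5 and Ndufv3 were too low to test, with a mean of 2.45 to 10.0 CPM in crude libraries.

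Of the 20 accessory members of the membrane arm, 12 were tested, 1 rose and 1 fell. Ndufa10 (chr1:92439010-92473860, minus strand), on the matrix side of the membrane arm, had a lowest level of 11.7 CPM, a median of 36.1 and a highest of 101 in crude libraries. In sorted libraries the lowest was 0, the median 6.83 and the highest 3108 CPM. Replicate 3 gave 81.6% of the summed sorted CPM, and the sorted median lay below the lowest crude library, so the fitted direction and the medians differed in sign. The log2 fold change was 3.21 ± 1.19 (SE, edgeR, adjusted p = 0.0418). It was 0.90 (adjusted p = 0.485) without sorted replicate 3, the adjusted p lay between 0.0557 and 0.0701 without any crude replicate other than 9, and the value was -0.72 with a replicate block and -0.40 with limma voom.

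Ndufa1 (chrX:37187588-37191163, minus strand), a small membrane-spanning subunit, had a lowest level of 1.94 CPM, a median of 8.08 and a highest of 36.2 in crude libraries. Its sorted libraries held 4 counts in all, with none in 7 of 10 and a highest level of 11.8 CPM. The crude median lies below the level that a count of 0 allows in most sorted libraries, so the fall rests on the group as a whole. Sorted over crude, the log2 fold change was -2.21 ± 0.80 (SE, edgeR, adjusted p = 0.0381), and the adjusted p was 0.0548 without sorted replicate 4 and 0.05004 without sorted replicate 5. With limma voom the value was -0.42 (adjusted p = 0.642). Ndufa1 passed the filter in only 1 of the 10 fits without a crude library and in 9 of the 10 without a sorted one. In the remaining fits it was not tested.

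Ndufb11 and Ndufa8, the most abundant membrane arm members, had higher mean levels after sorting and did not pass the threshold, though some other settings called them. Ndufb11 (chrX:20615326-20617619, minus strand) had a lowest level of 168 CPM, a median of 430.3 and a highest of 1101 in crude libraries, and a lowest of 0, a median of 989 and a highest of 4971 CPM in sorted ones. Of the sorted libraries, 5 of 10 lay above the highest crude library, and replicate 9 had no count. edgeR fitted a log2 fold change of 1.70 ± 0.70 (SE, edgeR, adjusted p = 0.0675), and the adjusted p fell to 0.0454, 0.0393 and 0.0207 without sorted replicate 2, 4 and 9. It was 0.0179 with DESeq2 and 0.0340 with crude libraries thinned, and 0.603 with limma voom, where the log2 fold change was 0.53.

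Ndufa8 (chr2:36036326-36049406, minus strand) had a lowest level of 120.0 CPM, a median of 168 and a highest of 334 in crude libraries, and a lowest of 71.6, a median of 177 and a highest of 4191 CPM in sorted ones. The medians lay close together, and replicate 7 gave 62.0% of the summed sorted CPM. The fitted log2 fold change was 1.80 ± 0.71 (SE, edgeR, adjusted p = 0.0569). It was 0.52 (adjusted p = 0.509) without sorted replicate 7, and the adjusted p was 0.0363 to 0.0486 without sorted replicate 1, 2, 4, 5, 8, 9 or 10. It was 0.0110 with DESeq2, 0.0494 with DESeq2 size factors, 0.0337 with crude libraries thinned and 0.0236 without sorted replicates 1 and 4, and 0.689 with a replicate block, where the log2 fold change was 0.42.

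The other tested membrane arm members (Ndufa11, Ndufa13, Ndufb5, Ndufb6, Ndufb8, Ndufb9, Ndufb10 and Ndufc2) had fitted log2 fold changes from -2.07 (Ndufa13) to 1.97 (Ndufb6), with adjusted p of 0.125 or more in edgeR. Ndufa3, Ndufb2, Ndufb3, Ndufb4, Ndufb7 and Ndufc1, with a mean of 1.18 to 14.1 CPM in crude libraries, did not pass the filter, nor did Ndufs5 and Ndufb4c. Ndufb6 took 72.5% of its sorted CPM from replicate 2. Of the Ndufa4 pair, Ndufa4 (chr6:11900292-11907497, minus strand) had a lowest level of 67.5 CPM, a median of 198 and a highest of 337 in crude libraries, and 39.6, 123 and 350.3 CPM in sorted ones. The groups overlapped over nearly their whole ranges (log2 fold change -0.36 ± 0.54, SE, edgeR, adjusted p = 0.638). With library totals Ndufa4 was called lower, at -1.57 (adjusted p = 0.0142) beside the all-gene median of -1.28.

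**Figure D5:**
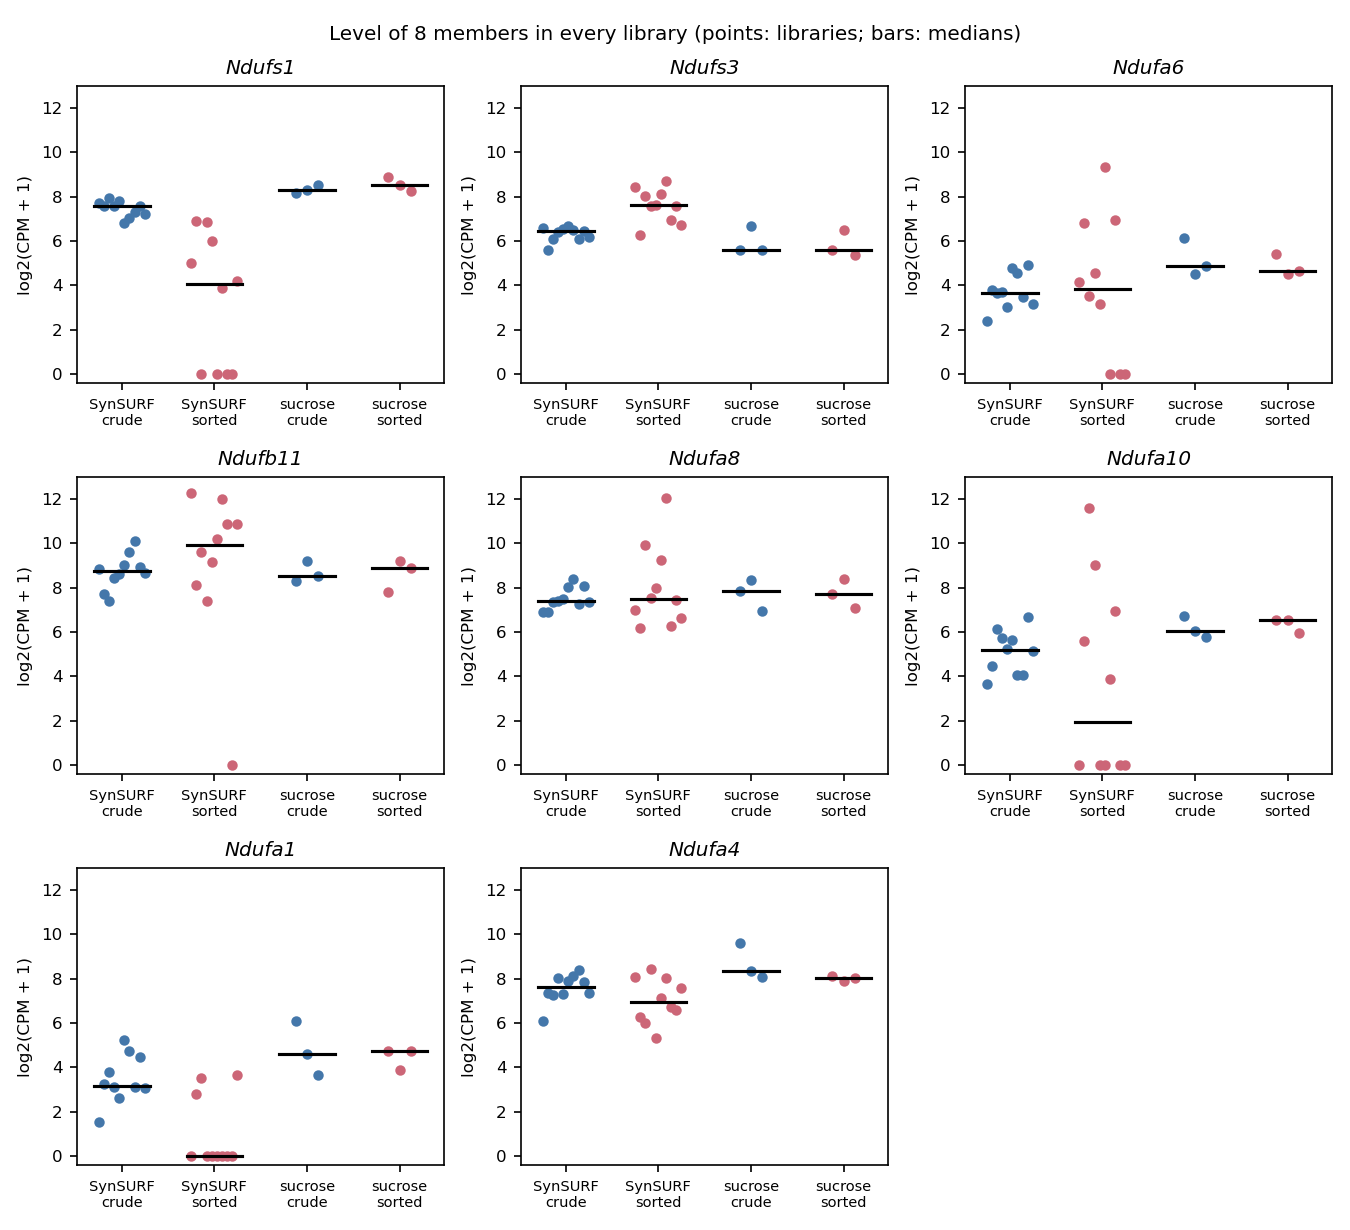
Level of 8 members in every library as log2(CPM + 1), with a point for each library and a bar at the median of each of the 4 groups. For Ndufs3, 9 of 10 sorted SynSURF libraries sit together above the crude ones, and replicate 2 lies inside the crude range. Ndufa6, Ndufa10 and Ndufa8 spread from 0 or near the crude level upwards. Each of these has 3 sorted libraries above the highest crude one, 1 of them well above the rest.

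Ndufs5, Ndufb4c, Ndufa4l2 and Ndufa11b had no count in any sorted SynSURF library. Ndufs5, a twin-cysteine subunit on the intermembrane space side, had 1081 counts in crude libraries, with counts in 9 of 10. Crude replicate 7 held 462 of them, while crude replicate 1 held 2 and crude replicate 8 held 0. The bounds that follow pool the libraries and leave this spread out. Against a floor of 3 counts over the group, Ndufs5 was at least 9.24-fold lower in sorted libraries. It was at least 26.7-fold lower with library totals over all genes. Sorted replicate 1 holds much of the sorted depth, and without it, an alternative chosen after seeing the data, these bounds were 5.91-fold and 11.4-fold. Its near-identical copy Ndufs5-ps held counts in every crude library and in sorted replicate 10, so the split of reads between them is uncertain. Ndufb4c was at least 1.85-fold lower, or at least 1.19-fold without sorted replicate 1, and no fold is given for Ndufa4l2 and Ndufa11b, whose crude levels lay under the floor.

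In the sucrose preparation no complex I mRNA passed the test between sorted and crude libraries. Of 10589 genes tested, edgeR called 0% in either direction and 324 (3.06%) had an unadjusted p under 0.05. Of the 36 members tested, 0 were called and 1, Ndufa7, had an unadjusted p under 0.05. DESeq2 called 0 members too, and limma voom called 0. The member median log2 fold change was -0.33, against -0.04 over all genes tested.

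Ndufa7, a peripheral arm subunit, had 1461, 62.7 and 8.79 CPM in sucrose crude replicates 1, 2 and 3 and 42.9, 34.3 and 32.5 CPM in the sorted ones. Crude replicate 1 gave 95.3% of the crude level, and the sorted libraries lay between crude replicates 2 and 3 (log2 fold change -3.80 ± 1.28, SE, edgeR, adjusted p = 0.999). Crude replicate 1 also held the highest crude level of 24 of the other 36 members.

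Ndufs1 had 283, 314 and 365 CPM in sucrose crude replicates 1, 2 and 3 and 479, 367 and 309.8 CPM in the sorted ones (0.26 ± 0.36, edgeR, adjusted p = 0.999). Ndufs3 had 48.3, 101 and 47.3 CPM and then 47.3, 90.1 and 40.02 CPM (-0.15 ± 0.49, adjusted p = 0.999). The groups overlapped for both of these core subunits. Within same-numbered pairs Ndufs3 was lower after sorting in 3 of 3, by less than the spread between pairs, and with the replicate block it had -0.14 (edgeR, adjusted p = 0.907). Ndufc2, a membrane arm subunit with 20.2, 16.0 and 23.6 CPM in crude and 7.57, 12.9 and 15.9 CPM in sorted libraries, was the member whose sorted libraries all lay below the crude ones, 1 of 36 against 3.84% of all genes tested. None had every sorted library above every crude one, against 4.57%.

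The difference of the sorted-minus-crude effect between the preparations was tested in 1 fit over the genes in both tables. Of 10713 genes, edgeR called 32 (0.299%) with a more positive and 1853 (17.3%) with a more negative effect in SynSURF. Of the 36 members tested, 0 were called and 6 had an unadjusted p under 0.05, against 17.6% and 30.8% of all genes. The member median difference was -0.31, against -1.17 over all genes. It was 0.25 with DESeq2 size factors (all genes -0.98), 0.02 with DESeq2 (-0.93), -0.55 with limma voom (-0.92), -0.86 with library totals (-1.86), -1.57 with a replicate block (-2.54) and -1.09 without SynSURF sorted replicate 2, so no direction is given for it. Ndufs5 (adjusted p = 0.0691) and Ndufb4 (adjusted p = 0.0757) were among the lowest in adjusted p, while Ndufs1 had -2.99 ± 1.28 (SE, adjusted p = 0.104) and Ndufs3 1.14 ± 0.89 (adjusted p = 0.420). DESeq2 called 0 members higher and 2 lower, limma voom 2 higher and 2 lower, and edgeR with library totals 0 higher and 4 lower. Over all 10713 genes the same fits called 66 higher and 1626 lower, 162 and 2002, and 21 and 3012.

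Complex I assembly factors, which join the subunits but are not part of the finished enzyme, were mostly too low to test in SynSURF. Of 15 complex I assembly factors in the SynSURF table, 5 were tested in SynSURF, 0 rose and 2 fell (Ndufaf4 and Acad9), against 7.62% and 22.1% of all genes tested. Ndufaf4 had a mean of 15.8 CPM in crude libraries and a count in 1 sorted library (log2 fold change -2.82 ± 0.76, SE, edgeR, adjusted p = 0.00592). In sucrose libraries 14 were tested and 0 were called. Ndufab1, the acyl carrier protein that Ndufa6 binds, was called higher in SynSURF (log2 fold change 5.61 ± 1.47, SE, edgeR, adjusted p = 0.00500), with 99.0% of its sorted CPM in replicate 2.

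Before sorting, most complex I mRNAs varied together from library to library, and a few did not. Over the 10 SynSURF crude libraries, the mean log2(CPM + 1) of the members ran from 2.96 in replicate 1 to 5.07 in replicate 9. Crude replicate 1 also had the lowest Rn45s share, 0.0894%, and replicates 6 and 9 the highest, 0.778% and 0.694%. The correlation of each member with the mean of the others was high for Ndufb7 and Ndufa11, for example (Pearson r of 0.942 and 0.939). It was near 0 for Ndufs3 (0.0948) and below 0 for Ndufb11 (-0.17) and Ndufs1 (-0.27). Among 2867 genes with a mean of at least 50 CPM, those most like the member mean were Rps4x (r = 0.966), Rps20 (0.963), Rpl28 (0.961), Rpl13 (0.957) and Yars (0.956). The points share libraries, depth and scaling, so these values are descriptions with no test.

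The promoters of some members share a motif of nuclear respiratory factor 1 (NRF1), a transcription factor known for genes of the respiratory chain. Promoters came from RefSeq (GRCm38.p6), each with 250 bases before and 50 after an annotated start, and the pattern searched on both strands was GCGC, then A, then any base, then GCGC. A match on the opposite strand reads as GCGC, any base, T, GCGC in the printed direction, as in Ndufa6 and Ndufa8. The motif was in 7 of the 32 members with a promoter in that table (21.9%) and in 5.19% of all 27025 genes with one. The 7 were Ndufa5, Ndufa6, Ndufa8, Ndufa11, Ndufb4, Ndufs5 and Ndufs6. Ndufa11 followed the member mean closely in crude libraries, and Ndufa8 was seen in every sorted library. Ndufa6 was called higher after sorting, but not without sorted replicate 6. Among the other carriers, Ndufs5 had no sorted count, Ndufb4 and Ndufs6 had counts in 2 of 10 sorted libraries, and Ndufa5 in 3. Ndufb4 had r = 0.428 with the mean of the other members in crude libraries. A link between the motif and these traits was not tested. The sequences of Ndufa11, Ndufa6 and Ndufa8 are given in that order, with the motif in capitals. They lie at chr17:56717512-56717811 (plus strand), chr15:82354242-82354541 (minus strand) and chr2:36049289-36049588 (minus strand).
Ndufa11: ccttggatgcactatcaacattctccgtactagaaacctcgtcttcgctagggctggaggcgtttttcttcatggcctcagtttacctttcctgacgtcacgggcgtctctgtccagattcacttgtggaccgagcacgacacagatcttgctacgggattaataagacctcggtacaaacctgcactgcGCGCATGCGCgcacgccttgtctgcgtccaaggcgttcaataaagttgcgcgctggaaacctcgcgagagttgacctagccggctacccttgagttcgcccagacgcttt
Ndufa6: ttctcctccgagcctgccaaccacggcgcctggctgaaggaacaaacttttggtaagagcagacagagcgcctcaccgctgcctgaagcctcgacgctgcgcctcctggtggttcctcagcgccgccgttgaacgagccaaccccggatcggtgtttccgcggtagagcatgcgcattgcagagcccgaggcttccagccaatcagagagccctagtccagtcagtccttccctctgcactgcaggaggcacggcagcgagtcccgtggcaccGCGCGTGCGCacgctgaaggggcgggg
Ndufa8: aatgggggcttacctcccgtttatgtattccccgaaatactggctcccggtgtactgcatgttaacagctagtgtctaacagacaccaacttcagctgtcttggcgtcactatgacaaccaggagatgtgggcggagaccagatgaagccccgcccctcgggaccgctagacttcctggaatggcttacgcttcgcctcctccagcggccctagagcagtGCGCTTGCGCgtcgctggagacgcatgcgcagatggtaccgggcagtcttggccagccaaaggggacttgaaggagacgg
In Ndufa6 the motif lies after the annotated start, from base 23, and in Ndufa11 and Ndufa8 it begins at base -60 and base -30, counted from the start. A match is a description of the letters and says nothing about binding in these samples.

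The members lie on 15 chromosomes, and their longest annotated coding transcripts are short, with a median of 918 bases and 23 of 39 under 1000 bases. Exons of 16 members overlap an exon of another gene in GENCODE M21, 3 of them (Ndufb2, Ndufb8 and Ndufb9) on the same strand. Ndufs1 shares 489 exonic bases with Ino80dos, Ndufs3 88 with Kbtbd4 and Ndufb11 117 with Rbm10, all on the opposite strand. The strand setting of the counting is not given in the sources used here, so reads from these stretches cannot be assigned to either gene.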

How the data were processed

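Poly(A) RNA of SynSURF and sucrose gradient synaptosomes was analysed from gene tables the authors deposited. Estimated counts, deposited by the authors, include values that are not whole (7278 in the SynSURF and 4660 in the sucrose table, 36 and 10 of them in members), which were rounded. TPM, deposited by the authors in the same tables, were used for levels between genes, and how their gene lengths were set is not given in the sources used here. HISAT2 and fastp are named in the submitters' processing notes, with GRCm38 and GRCm39 as builds. No source used here names the counter or its strand setting. A further 18 columns of per-sample values in another sheet were not used.

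Counts were tested with edgeR 4.0.16 in R 4.3.3 (TMM factors, filterByExpr, quasi-likelihood test, Benjamini-Hochberg adjustment over all genes tested), within each table and, over genes in both, for the difference of effects. limma 3.58.1 (voom with sample weights) and DESeq2 1.42.0 were alternatives, beside other scalings and filters, a replicate block, thinning and leaving out libraries. The fits were tested on simulated data drawn from a common profile with a fixed scatter. These had no members led by a single library as the sorted libraries do, so the test does not cover such cases. Same-numbered sucrose libraries deviated together (r = 0.348, 0.487 and 0.338), so comparisons within these pairs are described, from the data and not from the labels. The main tests did not use the pairs, and the replicate block was an alternative. With the block, edgeR gave 939 sucrose genes an unadjusted p under 0.05, 2 of them members, against 324 and 1 in the main fit. The block left 0 sucrose members called. Full values are given for members past the threshold and the 3 with the highest mean CPM in SynSURF crude libraries, and the others by role, range and count. 1 member is not reported here by name, and the counts over members include it. Members and lists were chosen with earlier results of these data known.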

Additional observations from a re-analysis of the deposited data

Results flagged for a closer look

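In 3 of 22 groups of library values tested, 1 library stood apart from the other libraries of its group by Dixon's criterion. For normally distributed values chance meets this criterion in about 1 in 20 groups. Sorted CPM are skewed with many zeros, and the groups share libraries, so that rate need not hold here. All 3 libraries that stood apart were sorted SynSURF libraries. Ndufa10 reached 3108 CPM in replicate 3, Ndufa6 reached 644.7 CPM in replicate 6 and Ndufa8 reached 4191 CPM in replicate 7. Each gap to the next library took 0.833, 0.811 and 0.78 of the group's range.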

How the results depend on the processing

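Ndufs1 stayed called lower in SynSURF in every other setting and every fit without 1 library in which it was tested, while Ndufs3, Ndufa6, Ndufa10 and Ndufa1 did not stay called in all of them. Members called higher (3) and lower (3) became 0 and 6 with library totals, 0 and 7 without the filter, 1 and 6 with limma voom, 4 and 6 with DESeq2, and 3 and 1 with crude libraries thinned to sorted totals. Without 1 library they ranged from 1 to 5 and from 2 to 8. With the replicate block they became 0 and 5. Same-numbered SynSURF libraries had r from 0.0566 to 0.190 and 8 of 10 were most like their own number, a hint from the data only. Ndufa10 turned to -0.40 with limma voom and -0.72 with the block, and was not called with DESeq2, library totals or no filter. Ndufa6 was no longer called with library totals, limma voom, no filter or the block, nor Ndufa1 with limma voom or without sorted replicates 1 and 4. The cause was not tested. Among all genes, higher and lower calls moved from 503 and 1458 to 100 and 2592 with library totals, 37 and 2640 with the block, 77 and 2610 with limma voom and 483 and 2587 with DESeq2. Ndufb11, Ndufa8 and Ndufa4, not called, were called in 2, 4 and 1 of 10 other settings.

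The sucrose member median (-0.33) was -0.13 with limma voom and from -0.47 to 0.14 without 1 library, and no setting called a member. For the difference between preparations, members called lower (0) became 4 with library totals, 2 with DESeq2, 2 with limma voom, 1 with the replicate block, 2 without SynSURF sorted replicates 1 and 4 and 0 to 2 without 1 library, and limma voom called 2 higher. Sorted SynSURF depth limits all of this: a count of 0 there allows 5.55 to 57.4 CPM, above the crude median of many members.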
